A study of Mus musculus with 25 samples.

Results

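The genes described here encode aminoacyl-tRNA synthetases, the enzymes that join each amino acid to its matching tRNA. They were taken by gene symbol as 35 of the 24015 genes listed in each of 2 deposited expression tables. Of these, 20 encode cytosolic enzymes or subunits and 15, whose symbols end in ars2, encode the mitochondrial counterparts. Lars2 was left out of the list because its values followed those of Rn45s, a ribosomal RNA gene: with vismodegib over vehicle the log2 fold change was -2.12 for Lars2 and -2.17 for Rn45s. All 35 genes were listed in both tables and all 35 passed the filter on low values in both.

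Messenger RNA was sequenced from mouse tumours and from mouse cells. The tumours were 4 resistant and 4 sensitive basal cell carcinomas. They grew in C57BL6 mice that carried Ptch+/-, floxed p53 alleles (p53 fl/fl) and the K14 Cre-ER transgene, in which a keratin promoter of basal keratinocytes drives an inducible Cre. Mice bearing tumours of either kind had received an inhibitor of Smoothened (Smo), the membrane protein that starts Hedgehog signalling, by oral gavage. The cells were ASZ001, cultured mouse basal cell carcinoma cells described in the labels as resistant, with 3 libraries each of cells treated with CCG-1423, with vismodegib and with vehicle. CCG-1423 is known as an inhibitor of transcription through the factors MRTF and SRF, and vismodegib is a Smoothened inhibitor. The sources used here give no doses, treatment times or ages, and do not say whether a replicate is a separate animal or culture. ASZ001 is 1 cell line.

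Synthetases supply the ribosome with charged tRNA, and cells keep separate sets for the cytosol and for the mitochondrion, both encoded in the nucleus. Eprs carries glutamyl- and prolyl-tRNA synthetase in 1 polypeptide, Farsa and Farsb encode the subunits of the cytosolic phenylalanyl enzyme, and Gars and Kars serve both compartments. Several cytosolic enzymes sit together on the scaffold proteins Aimp1, Aimp2 and Eef1e1. Many cytosolic synthetase genes are known targets of ATF4, the transcription factor of the integrated stress response. ATF4 is made when the initiation factor eIF2 is phosphorylated by kinases that sense amino acid shortage, endoplasmic reticulum stress, heme shortage or double-stranded RNA. ATF4 and its C/EBP partners bind a composite element in promoters.

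Because that element is the known link between ATF4 and this gene family, the promoters were searched for it. The sequences are RefSeq promoters of mouse build GRCm38.p6, each covering 250 bases before and 50 bases after a gene's start, and 26 of the 35 genes had an entry, 13 cytosolic and 13 mitochondrial. The letters searched were TGATGNAA, on both strands, as 1 form of the C/EBP-ATF response element. They occurred in 5 of 13 cytosolic promoters (38.5%), in 0 of 14 mitochondrial promoters, and in 1304 of all 32851 promoters (3.97%). The cytosolic genes were Aars, Gars, Iars, Tars and Yars. A match is a description of the letters and not a binding site, and a promoter with no match says only that these letters are absent from this window. Cars, Hars, Lars, Nars, Rars, Vars, Wars, Hars2 and Pars2 had no entry. The 3 matches that lie before a start are shown on the strand of their gene with the element in capitals. They stand at chr8:111033709-111033758 (plus strand) for Aars, at chr6:55037950-55037999 (plus strand) for Gars and at chr15:11399659-11399694 (minus strand) for Tars.
Aars: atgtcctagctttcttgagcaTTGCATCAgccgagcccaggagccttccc
Gars: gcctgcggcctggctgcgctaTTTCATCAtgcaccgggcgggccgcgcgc
Tars: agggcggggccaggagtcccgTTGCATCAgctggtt
In capitals is the element as read from the opposite strand. It lay 112 bases before the start in Aars, 30 bases before it in Gars and 15 bases before it in Tars. The matches of Iars and Yars, and a further one of Aars, lay just after the start.

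Reads at genes numbered 17537094 to 20014426 in resistant tumours and 8111252 to 14161398 in sensitive tumours. In ASZ001 cells they numbered 32024887 to 41040633 with CCG-1423, 30455530 to 35561668 with vismodegib and 32192090 to 44017757 with vehicle. The fewest reads of any member in any library were 50 in the tumours, for Mars2, and 168 in the cells, for Pars2. Sensitive tumour 4 stood apart from its group: its log2 profile across genes had a mean correlation of 0.952 with the resistant tumours and of 0.828 with sensitive tumours 1 to 3, so the tumour counts and medians of the synthetases are given with and without it. Values below are the deposited normalized read counts, and tests are limma on log2(normalized count + 1), adjusted by Benjamini-Hochberg over all genes tested, with a threshold of 0.05. In bulk RNA, fewer cells of a type and less RNA per cell cannot be told apart.

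With CCG-1423, most cytosolic synthetase transcripts were higher than with vehicle, and the mitochondrial ones moved in both directions. Against vehicle, 18 of 20 cytosolic genes rose, Dars fell and Hars did not pass. Of all 12775 genes tested, 85.3% passed in this comparison, 42.8% higher and 42.6% lower. A rise of at least 2-fold was passed by 8 of 20 cytosolic genes and by 11.7% of all genes. The median log2 fold change of the cytosolic genes was 0.95 (range -0.15 to 1.73), against 0.00 for all genes. Of the 15 mitochondrial genes, 6 rose, 7 fell and 2 did not pass, shares near those of all genes, with a median of -0.07 (range -1.18 to 0.67). At least 2-fold, 0 mitochondrial genes rose and 1, Mars2, fell, where 15.3% of all genes fell.

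Vars, valyl-tRNA synthetase, had 24361, 24151 and 23148 normalized counts with CCG-1423, 7833, 7544 and 7870 with vismodegib, and 7557, 7011 and 6973 with vehicle. The CCG-1423 libraries stood far above the others, and the fold change over vehicle was 1.73 on the log2 scale (SE 0.04, adjusted p = 6.99e-16 by limma). Cars, cysteinyl-tRNA synthetase, had 3266, 3579 and 3498 normalized counts with CCG-1423, 1096, 1086 and 1059 with vismodegib, and 1098, 1054 and 1051 with vehicle. Again the CCG-1423 libraries did not overlap the others, with a log2 fold change over vehicle of 1.69 (SE 0.04, adjusted p = 4.84e-15). Yars, tyrosyl-tRNA synthetase, had 5885, 6535 and 6398 with CCG-1423, 2501, 2322 and 2479 with vismodegib, and 2285, 2248 and 2202 with vehicle. Its 3 CCG-1423 values were all above its other 6, and it changed by 1.48 over vehicle (SE 0.04, adjusted p = 2.25e-14). Aars, the alanyl enzyme, had 32464, 32715 and 32180 with CCG-1423, 13755, 13542 and 13607 with vismodegib, and 13521, 13196 and 13003 with vehicle. Its change over vehicle was 1.29 (SE 0.03, adjusted p = 1.01e-15), with the CCG-1423 libraries close together and apart from the rest.

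Next in size were Nars, the asparaginyl enzyme, at 20375 ± 660 normalized counts with CCG-1423 and 8922 ± 210 with vehicle (SD, n = 3 each), and Sars, the seryl enzyme, at 15962 ± 544 with CCG-1423 and 7010 ± 192 with vehicle. Each changed by 1.19 on the log2 scale. Eprs and Gars each changed by 1.08 and complete the 8 genes past 2-fold. The remaining 10 that rose ranged in log2 fold change from 0.37 (Lars and Farsa) to 0.95 (Tars, Farsb and Iars). Dars, the aspartyl enzyme, averaged 2620 ± 81.1 with CCG-1423 and 2899 ± 48.8 with vehicle, a log2 fold change of -0.15 (SE 0.03, adjusted p = 6.9e-04). Hars, the histidyl enzyme, averaged 3204 ± 58.8 with CCG-1423 and 3239 ± 49.7 with vehicle, and its groups overlapped (adjusted p = 0.647). Synthetases fall into class I and class II by their catalytic fold, and Dars and Hars belong to class II. Of the cytosolic genes of a single class, 9 of 9 in class I and 8 of 10 in class II rose, with medians of 0.76 and 0.95. The 8 enzymes of the multi-synthetase complex had a median of 0.50, with 7 higher and 1 lower. The 12 cytosolic genes outside the complex had a median of 1.13, with 11 higher and 0 lower. Whether these subgroups differ was not tested.

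**Figure D1:**
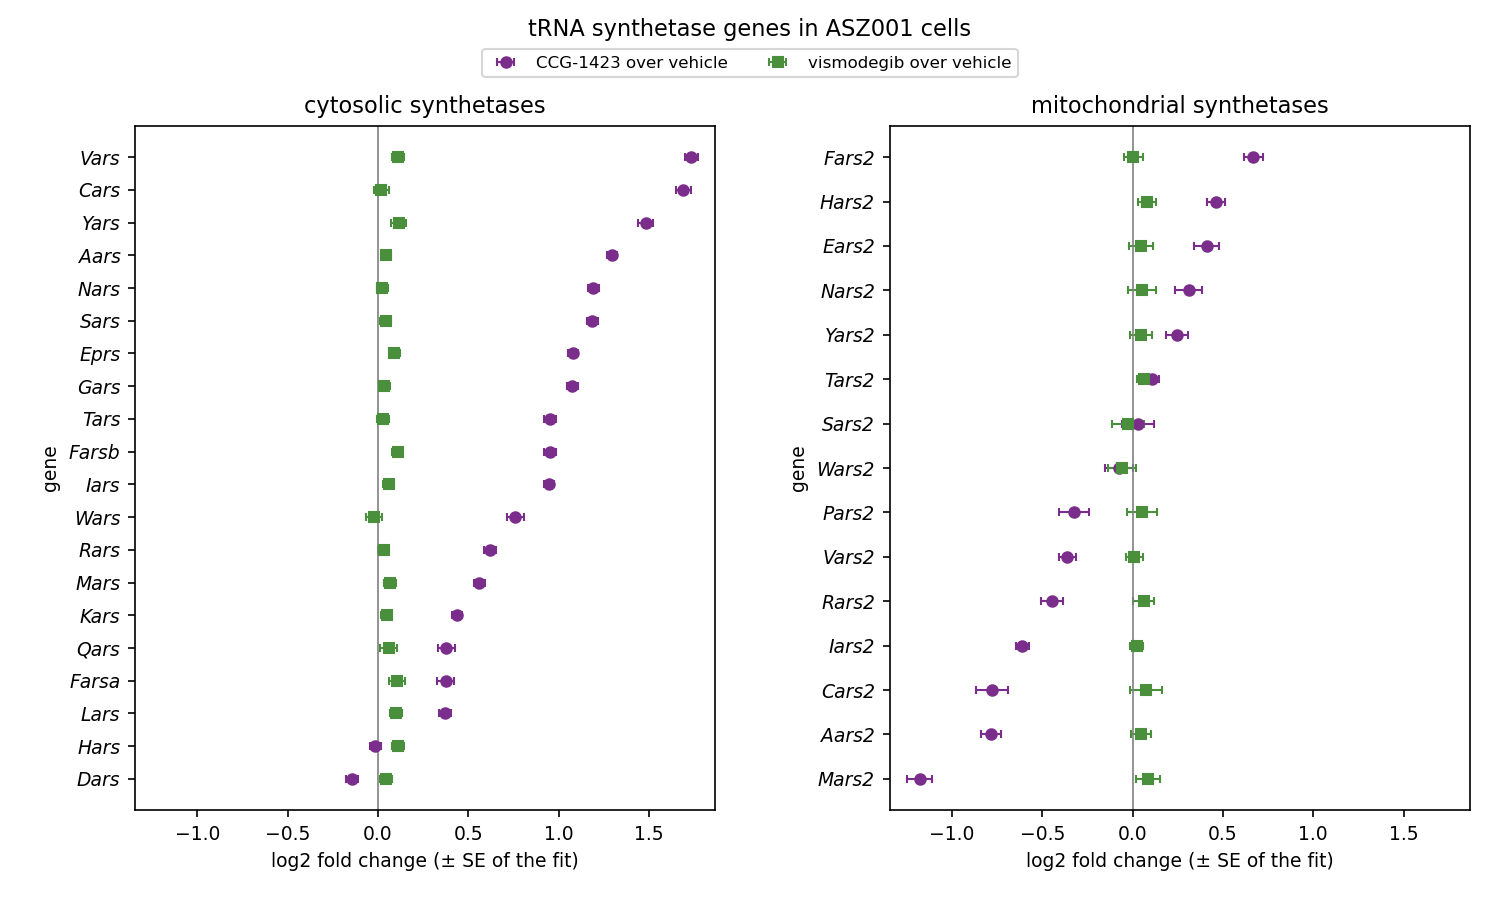
Log2 fold change over vehicle of each synthetase gene in ASZ001 cells (x axis, bars are the SE of the fit) for CCG-1423 (circles) and vismodegib (squares), with cytosolic genes on the left and mitochondrial genes on the right, ordered by the CCG-1423 change. With CCG-1423 the cytosolic genes spread from -0.15 to 1.73 and the mitochondrial genes from -1.18 to 0.67, while all vismodegib changes lie between -0.06 and 0.12.

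Mars2, the mitochondrial methionyl enzyme, showed the largest mitochondrial change. It had 346, 395 and 439 normalized counts with CCG-1423, 929, 950 and 942 with vismodegib, and 884, 884 and 892 with vehicle. The CCG-1423 libraries were all below the others, at a log2 fold change over vehicle of -1.18 (SE 0.07, adjusted p = 1.56e-10). Aars2, the mitochondrial alanyl enzyme, had 343, 365 and 371 with CCG-1423, 630, 631 and 660 with vismodegib, and 604, 639 and 617 with vehicle. It was lower in every CCG-1423 library, with a log2 fold change over vehicle of -0.78 (SE 0.06, adjusted p = 2.37e-09), whereas its cytosolic counterpart Aars rose. Cars2 also changed by -0.78 (SE 0.09), against a rise of Cars. Fars2, the mitochondrial phenylalanyl enzyme, went the other way, at 1203 ± 54.0 with CCG-1423 and 757 ± 33.5 with vehicle, a log2 fold change of 0.67 (SE 0.05, adjusted p = 4.81e-09). The other mitochondrial genes that rose were Hars2, Ears2, Nars2, Yars2 and Tars2, between 0.10 and 0.46, and those that fell were Iars2, Rars2, Vars2 and Pars2, between -0.61 and -0.32. Sars2 (0.03) and Wars2 (-0.07) did not pass. By catalytic family, 2 of 8 mitochondrial class I genes rose and 5 fell, and 4 of 7 class II genes rose and 2 fell.

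**Figure D2:**
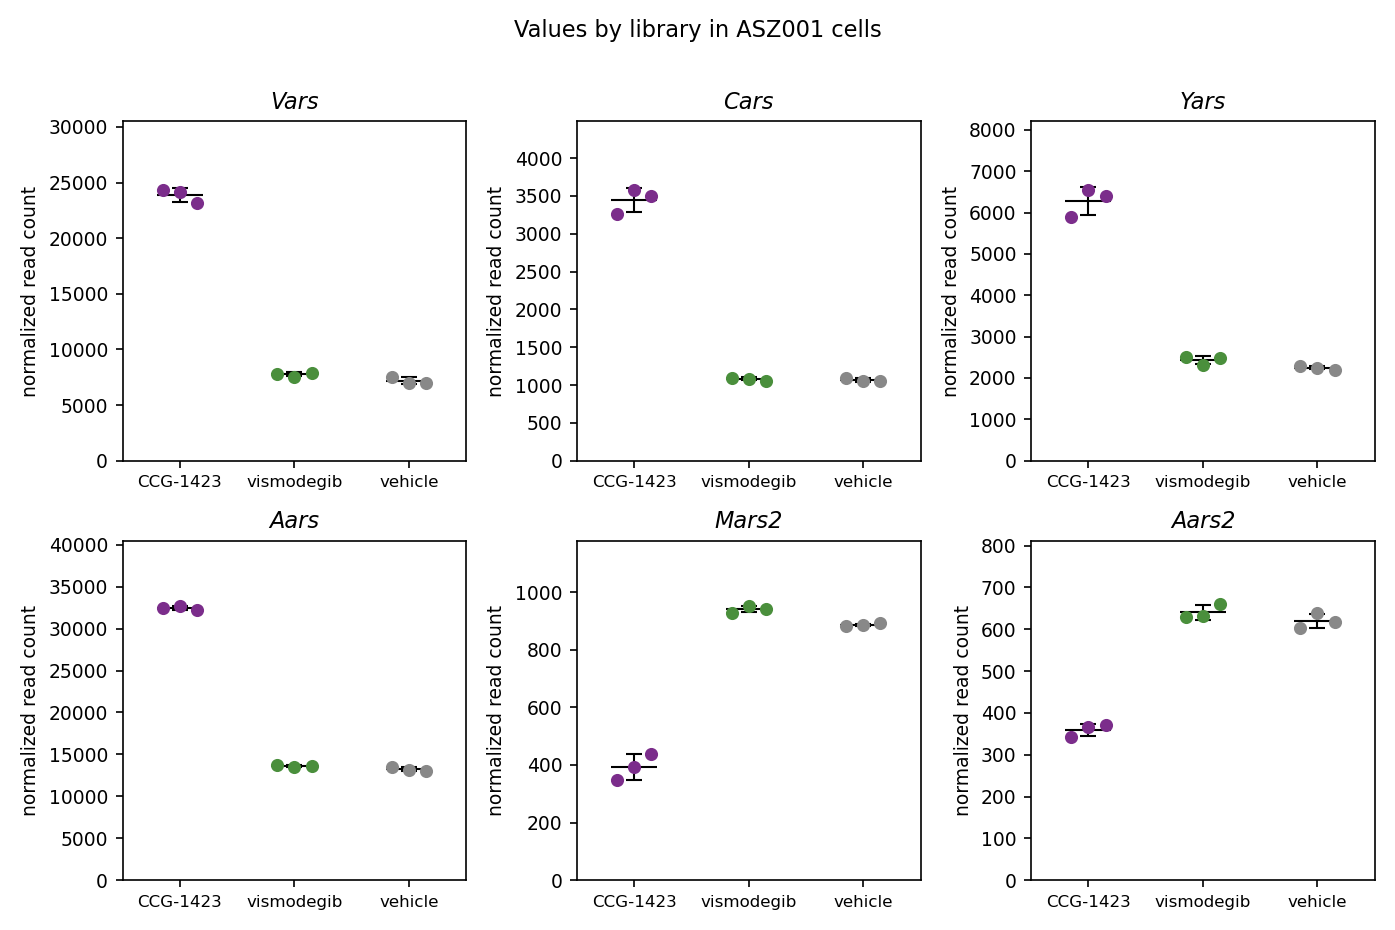
Normalized read counts (y axis, from 0) in each ASZ001 library with CCG-1423, vismodegib and vehicle for 4 cytosolic and 2 mitochondrial synthetase genes, where points are libraries and bars the mean ± SD (n = 3). Vars, Cars, Yars and Aars are higher in all CCG-1423 libraries than in the other 6, and Mars2 and Aars2 are lower in all of them.

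Cytosolic and mitochondrial enzymes for the same amino acid were set side by side. There were 16 such pairs over 15 amino acids, with Eprs paired with both Ears2 and Pars2 and Fars2 with both Farsa and Farsb, so some pairs share a gene. The cytosolic change over vehicle exceeded the mitochondrial one in 14 of 16 pairs. In those 14 the cytosolic to mitochondrial ratio in each CCG-1423 library was above that in every vehicle library, and in the other 2 it was below. How often the ratios of other gene pairs separate these libraries was not counted, and 85.3% of all single genes passed in this comparison. The median difference was 1.11 on the log2 scale. It was largest for cysteine, where the log2 ratio of Cars to Cars2 averaged 3.56 ± 0.15 with CCG-1423 and 1.10 ± 0.04 with vehicle (SD, n = 3 each), a difference of 2.47. Valine followed with 2.10 and alanine with 2.08. The 2 pairs in the other direction were Hars with Hars2 (-0.48) and Farsa with Fars2 (-0.29). Hars and Hars2 overlap each other in the reference annotation. Other members overlap a protein-coding gene outside the family there: Aars (Ddx19b), Farsb (Sgpp2), Mars (Ddit3), Wars (Wdr25), Iars2 (Rab3gap2) and Rars2 (Orc3). The sources used here do not state strandedness, so reads of overlapping genes could not be told apart.

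**Figure D3:**
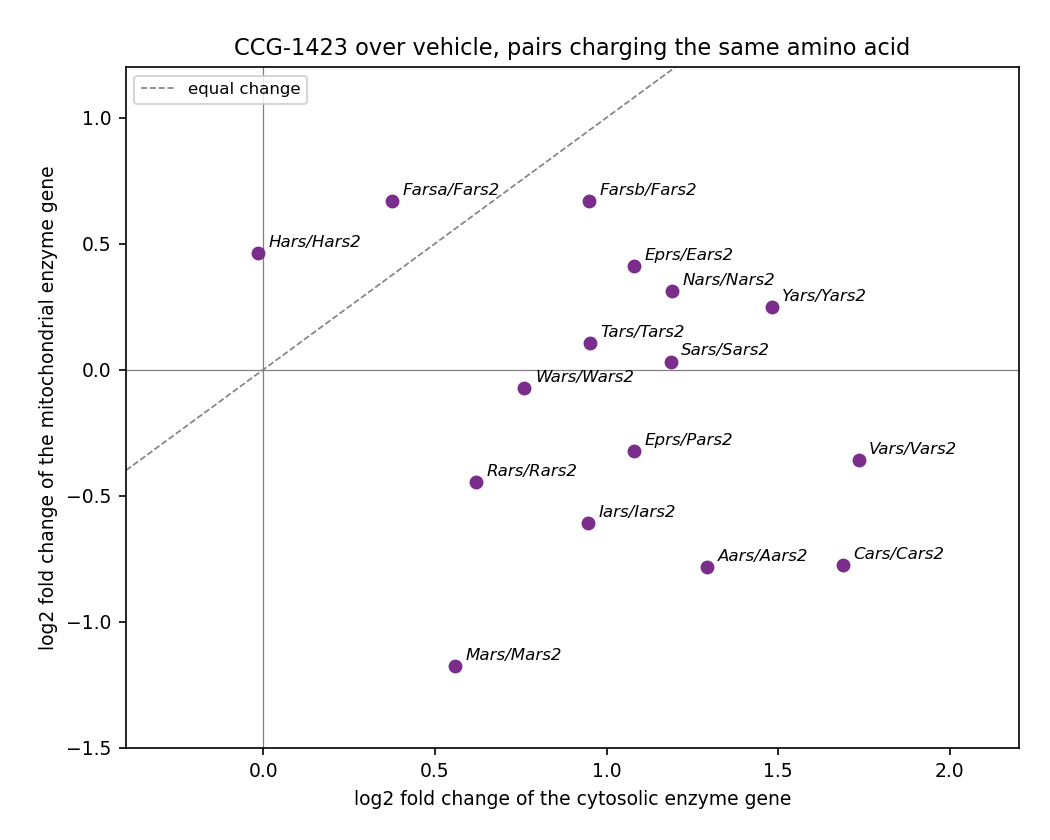
Log2 fold change with CCG-1423 over vehicle of the cytosolic synthetase gene (x axis) and of the mitochondrial gene for the same amino acid (y axis), with 1 point per pair and a dashed line where the changes are equal. Of the 16 pairs, 14 lie below the line, and Hars/Hars2 and Farsa/Fars2 lie above it.

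Summed over the 20 cytosolic genes, synthetase reads made up 0.598% to 0.623% of all reads at genes with CCG-1423, 0.323% to 0.328% with vismodegib and 0.290% to 0.305% with vehicle. The 15 mitochondrial genes together made up 0.0336% to 0.0343% with CCG-1423, 0.0403% to 0.0412% with vismodegib and 0.0370% to 0.0383% with vehicle. The cytosolic share was therefore higher, and the mitochondrial share lower, in each CCG-1423 library than in each of the other 6. Other features of the libraries differed between treatments too. The 8 basal keratinocyte and Hedgehog markers summed to 221377 to 230040 normalized counts with CCG-1423, 1120430 to 1141851 with vismodegib and 1185196 to 1207768 with vehicle, with 7 of 8 above 0 in all libraries and Hhip at 0 in all CCG-1423 and vehicle libraries. Of the 7 tested, 1 rose and 6 fell with CCG-1423 over vehicle, where 42.8% of all genes rose and 42.6% fell. Rn45s took 6.62% to 10.4% of reads with CCG-1423, 1.39% to 1.58% with vismodegib and 5.81% to 6.70% with vehicle. Its share thus overlapped between CCG-1423 and vehicle and was lower in every vismodegib library. The part of these in the result was not tested.

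Genes that work with the synthetases were counted by list, to be read beside the 42.8% of all genes that rose and the 42.6% that fell. The scaffolds of the multi-synthetase complex all rose with CCG-1423 over vehicle, by 0.94 (Eef1e1), 0.62 (Aimp2) and 0.41 (Aimp1) on the log2 scale. Of 5 cytosolic elongation factor genes, which bring charged tRNA to the ribosome and move it on, 4 rose and 0 fell, among them Eef1a1 (0.95), Eef1b2 (0.69) and Eef2 (0.64). Of 9 mitochondrial translation factors, 1 rose and 4 fell, with Tsfm at 0.79, Mtif2 at -0.62 and Gfm1 at -0.75. Of 7 other aminoacylation genes tested, 5 rose and 1, Gatc (-0.17), fell. Those that rose included Aarsd1 (0.73), an editing factor for mischarged alanyl-tRNA, Qrsl1 (0.68), a subunit of the mitochondrial enzyme that makes glutaminyl-tRNA, and Pstk (0.45), a kinase in selenocysteine synthesis. Of 14 genes of RNA polymerase III and its factors, which transcribe tRNA genes, 5 rose and 7 fell. Polr3k changed by -1.49, Gtf3c2 by -0.81, and Maf1, a repressor of this polymerase, by 0.87.

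The genes of the integrated stress response had the highest median change of the lists examined, with 11 of 12 higher, 1 lower (Vldlr, -0.41) and a median log2 fold change of 1.92. Atf4 had 16887, 18247 and 18195 normalized counts with CCG-1423, 4050, 3846 and 4034 with vismodegib, and 3952, 3993 and 3992 with vehicle, a log2 fold change over vehicle of 2.16 (SE 0.03). Ddit3, a transcription factor downstream of ATF4, changed by 3.62, Trib3, a pseudokinase induced by both, by 4.95, and Asns, asparagine synthetase, by 1.76. Ddit3 overlaps Mars in the reference annotation, so the reads of this pair could not be told apart. Enzymes of serine and one-carbon metabolism, many of them ATF4 targets, rose in 8 of 9 cases, including Mthfd2 (2.70), Phgdh (1.78) and Shmt2 (1.62), and Shmt1 (-1.21) fell. Of 8 amino acid transporters tested, 7 rose and 1, Slc7a11 (-1.39), fell, and Slc6a9, a glycine transporter, changed by 3.13, Slc7a5, which carries large neutral amino acids, by 2.81, and Slc1a4 by 1.82. Of the 4 eIF2 kinases, Eif2ak4 (0.79), the sensor of uncharged tRNA, and Eif2ak3 (0.58), the sensor of endoplasmic reticulum stress, rose, and Eif2ak1 (-0.24), the sensor of heme, and Eif2ak2 (-0.90), the sensor of double-stranded RNA, fell. These lists were chosen with earlier results of these cells known, so their counts are no independent evidence of direction.

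Vismodegib left the synthetases close to vehicle. By limma 0 of 35 members passed, where 5.5% of all genes did, 1.58% higher and 3.92% lower. At an unadjusted p under 0.05 there were 8 members, all cytosolic, where 18.5% of all genes reached it, and edgeR and DESeq2 on the recovered reads gave 7 each. Log2 fold changes over vehicle ran from -0.06 to 0.12, with medians of 0.05 for cytosolic and 0.05 for mitochondrial genes against 0.01 for all genes. The sign was positive for 32 of 35 members and for 55.7% of all genes. Every vismodegib library was above every vehicle library for 11 of 35 members and for 16% of all genes, and below for 0 members and for 14% of all genes. In the same libraries Gli1, a target gene and effector of the Hedgehog pathway, had 229, 272 and 240 normalized counts with vismodegib and 1216, 1304 and 1100 with vehicle.

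Hars had 3499, 3580 and 3409 normalized counts with vismodegib and 3197, 3294 and 3227 with vehicle, and Farsb had 2533, 2520 and 2658 with vismodegib and 2432, 2377 and 2345 with vehicle. In both genes every vismodegib library was above every vehicle library, but the changes of 0.11 (adjusted p = 0.0563) and 0.11 (adjusted p = 0.0761) did not pass. Eprs, at 0.09, likewise missed the threshold (adjusted p = 0.0781). Among mitochondrial genes Hars2 had 1064, 1046 and 1032 with vismodegib and 1019, 995 and 959 with vehicle, and Tars2 had 1477, 1582 and 1640 with vismodegib and 1476, 1509 and 1506 with vehicle. Tars2 overlapped between the groups and Hars2 did not, and neither passed, with adjusted p = 0.426 for Hars2 and 0.455 for Tars2. Mars2 changed by 0.09 (adjusted p = 0.562). Of the integrated stress response, serine, elongation factor and scaffold genes, 0 passed, with Atf4 at 0.00, Ddit3 at 0.00, Trib3 at 0.17, Asns at 0.06, Aimp2 at 0.04, Aimp1 at -0.05 and Eef1e1 at -0.09. Of the amino acid transporters, Slc7a11 (0.41), a cystine importer, and Slc1a4 (0.18) rose and Slc7a1 (-0.14), a transporter of cationic amino acids, fell.

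With scaling to equal library totals in place of the authors' size factors, 17 cytosolic and 3 mitochondrial members passed higher with vismodegib. Over all genes 3229 then passed in either direction, and 12775 were tested with the authors' size factors. How many of the 3229 rose is not given here, so the member counts cannot be set against a share. The median of all genes was then 0.09, the cytosolic median 0.14 and the mitochondrial median 0.13. Without vehicle replicate 1, 1 cytosolic gene passed, where the fits leaving out 1 library passed 325 to 498 genes over all genes.

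Set against vismodegib, CCG-1423 gave the same division of the family. This comparison shares its CCG-1423 libraries with the one above, so the values are given beside it and not as a repeat. Of the 20 cytosolic genes 18 rose and 2 fell, and of the 15 mitochondrial genes 5 rose and 7 fell, where 84.8% of all genes passed, 42.4% in each direction. The medians were 0.86 and -0.01. At least 2-fold, 7 cytosolic genes rose, where 12.2% of all genes did, and 1 mitochondrial gene, Mars2 (-1.26), fell, where 15.1% of all genes did. Hars, which overlapped between CCG-1423 and vehicle, was lower with CCG-1423 than with vismodegib, at -0.13 (SE 0.03, adjusted p = 0.00159). The largest rises were those of Cars (1.67), Vars (1.62), Yars (1.36), Aars (1.25), Nars (1.17) and Sars (1.15). Among mitochondrial genes Cars2 changed by -0.85, Aars2 by -0.83 and Fars2 by 0.66.

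In the tumours, resistant ones had more cytosolic synthetase RNA, summed over the genes, than 3 of the 4 sensitive ones. Sensitive tumour 4 had more than any resistant tumour, at 38302 normalized counts against 26399 to 33752. With all 8 tumours, 0 of 35 members passed by limma, where 0.113% of all 15076 genes did. At an unadjusted p under 0.05 there were 8 members, where 25.1% of all genes reached it. By edgeR on the recovered reads 0 members passed and 6 had an unadjusted p under 0.05. By DESeq2 2 of 35 members passed, Tars2 and Iars2, where 1638 of the 15076 genes did, a larger share than among the members. The median log2 fold change was 0.35 over the cytosolic genes, -0.05 over the mitochondrial genes and 0.03 over all genes. Values were positive for 16 of 20 cytosolic genes, 6 of 15 mitochondrial genes and 52% of all genes.

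Farsb had 1379, 1142, 1153 and 1292 normalized counts in resistant tumours and 600, 571, 659 and 1318 in sensitive tumours. Sensitive tumours 1 to 3 lay below all the resistant ones and sensitive tumour 4 among them, and the log2 fold change was 0.74 (SE 0.26, adjusted p = 0.155). Mars, the cytosolic methionyl enzyme, had 1618, 891, 1892 and 1308 in resistant tumours and 626, 593, 527 and 1470 in sensitive tumours (0.91, SE 0.36, adjusted p = 0.171). Sars had 1977, 1434, 1564 and 1520 in resistant tumours and 913, 989, 1075 and 1667 in sensitive tumours (0.51, SE 0.21, adjusted p = 0.181). In all 3 genes only sensitive tumour 4 of its group reached the resistant range. Tars2, the mitochondrial threonyl enzyme, had 658, 753, 590 and 594 in resistant tumours and 396, 377, 378 and 351 in sensitive tumours. Iars2, the mitochondrial isoleucyl enzyme, had 699, 644, 649 and 744 in resistant tumours and 1032, 1183, 1370 and 966 in sensitive tumours. For these genes the groups did not overlap even with sensitive tumour 4, with a log2 fold change of 0.78 for Tars2 (SE 0.15, adjusted p = 0.124) and of -0.72 for Iars2 (SE 0.15, adjusted p = 0.127), and neither passed by limma. DESeq2 gave 0.77 for Tars2 and -0.75 for Iars2, with adjusted p = 6.44e-05 and 7.54e-04. Sars2, at 0.57 (SE 0.21), also had groups that did not overlap and did not pass (adjusted p = 0.163), and so did Dars, lower in resistant tumours at -0.34 (adjusted p = 0.190), which makes 2 members higher and 2 lower. Over all genes, 3.9% were higher and 4% lower in resistant tumours with no overlap between the groups.

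**Figure D4:**
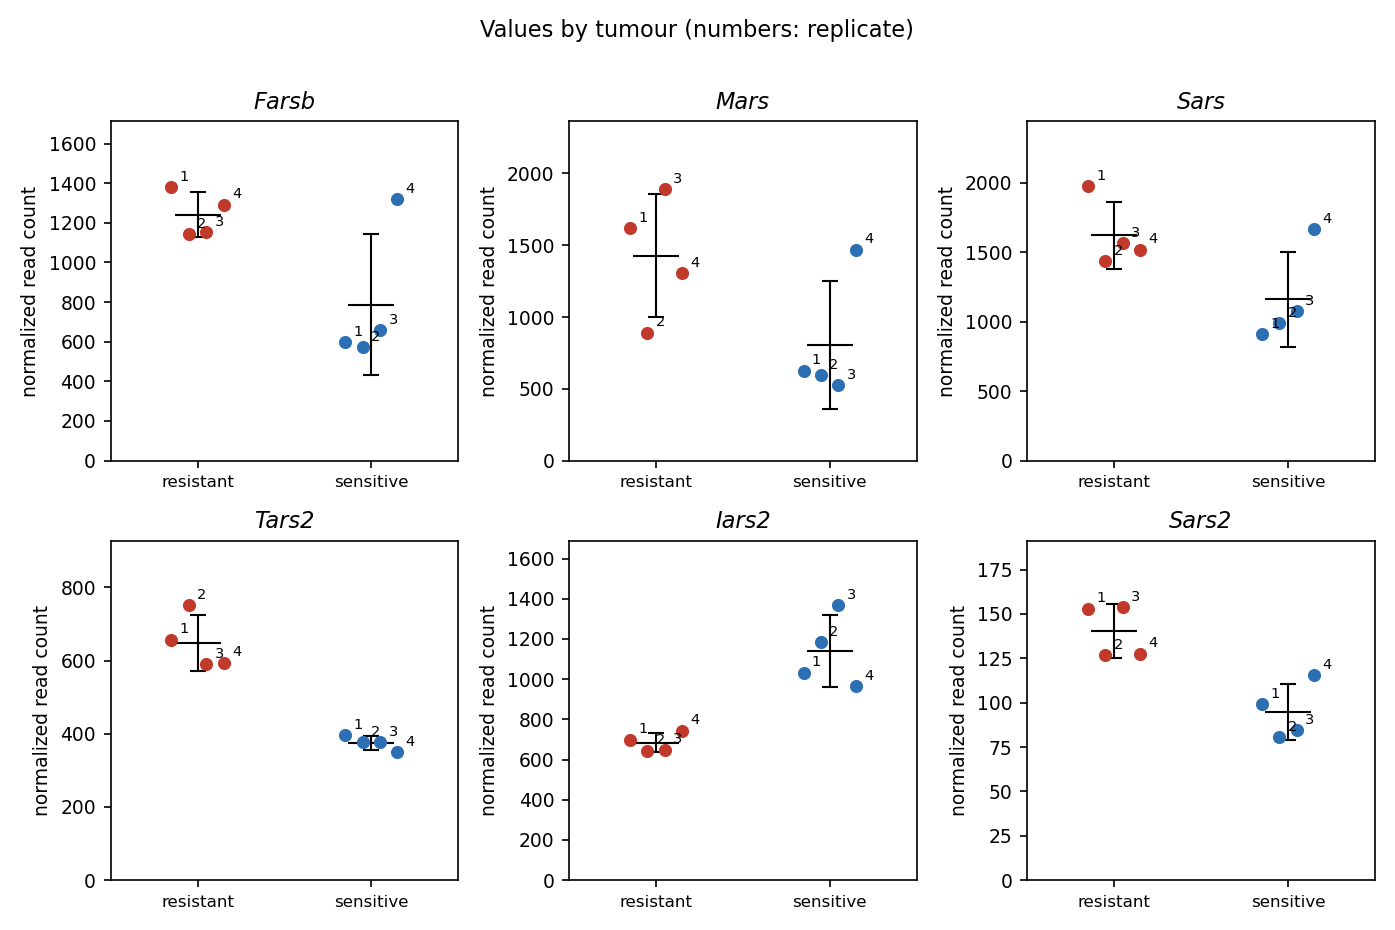
Normalized read counts (y axis, from 0) in each resistant and sensitive tumour for 3 cytosolic genes (top) and 3 mitochondrial genes (bottom), where points are tumours numbered by replicate and bars the mean ± SD (n = 4). In the cytosolic panels sensitive tumour 4 lies with the resistant tumours, and in the panels of Tars2 and Iars2 the groups do not overlap.

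Sensitive tumour 4 was above each of sensitive tumours 1 to 3 in 17 of 20 cytosolic genes and above every resistant tumour in 12 of 20. Among the 15 mitochondrial genes it was above sensitive tumours 1 to 3 in 4 and below them in 7, and above every resistant tumour in 3. The cytosolic genes together took 0.186% to 0.220% of reads in resistant tumours, 0.159% to 0.168% in the sensitive tumours numbered 1 to 3 and 0.267% in the fourth. It also shared other features with the resistant tumours. The neutrophil markers, 7 of 8 of them listed, summed to 6151 to 8978 normalized counts in resistant tumours, 641 to 1091 in the sensitive tumours numbered 1 to 3 and 16358 in the fourth. The 8 basal keratinocyte and Hedgehog markers summed to 38278 to 93748 in resistant tumours, 153383 to 214103 in the sensitive tumours numbered 1 to 3 and 97202 in the fourth, and all 8 were above 0 in every tumour. These markers did not move in 1 direction. Without sensitive tumour 4, 3 were higher in resistant tumours and 4 lower, where 20.6% of all genes were higher and 19.4% lower. Ddx3y, a Y-linked gene, stood at 0 in all 4 resistant tumours and in sensitive tumour 4, and at 452 to 641 normalized counts in the 3 remaining sensitive ones, where a count of 0 allows up to 3 reads. Without sensitive tumour 4, Y-linked expression and group therefore cannot be told apart, and the part of the markers in the results was not tested.

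Sensitive tumour 4 was left out after its values were seen, for its likeness to the resistant tumours. Leaving out such a tumour by itself widens the gap between the groups. The counts and p-values without it therefore describe the remaining tumours and are no independent evidence of a difference. Without sensitive tumour 4, 13 of 20 cytosolic genes were higher in resistant tumours and 0 lower, where 40% of all 15479 genes passed, 20.6% higher and 19.4% lower. At least 2-fold, 2 cytosolic genes rose, where 12.3% of all genes rose, and 0 fell, where 12.4% of all genes fell. The cytosolic median was 0.60, against 0.02 for all genes and -0.13 for the mitochondrial genes. The largest were Mars at 1427 ± 430 in resistant tumours (n = 4) and 582 ± 50.7 in sensitive tumours (n = 3), a log2 fold change of 1.24 (SE 0.24, adjusted p = 0.00489 by limma), and Farsb at 1242 ± 114 in resistant and 610 ± 45.0 in sensitive tumours, 1.02 (SE 0.13, adjusted p = 8.37e-04). Iars averaged 2319 ± 472 in resistant and 1143 ± 9.58 in sensitive tumours (adjusted p = 0.00253). The log2 fold change was 0.90 for Gars, 0.84 for Nars and 0.80 for Wars, the tryptophanyl enzyme. The cytosolic genes that did not pass were Vars, Lars, Tars, Yars, Qars, Eprs and Dars, between -0.32 and 0.37. The groups did not overlap for 15 cytosolic genes higher and 1 lower in resistant tumours, against 24.3% and 23.3% of all genes. Of the complex enzymes 4 of 8 rose, and of the other cytosolic genes 9 of 12.

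Of the 15 mitochondrial genes 3 were higher in resistant tumours and 3 lower without sensitive tumour 4, shares near those of all genes. Mars2 averaged 184 ± 33.1 in resistant and 85.4 ± 14.4 in sensitive tumours, 1.09 on the log2 scale (SE 0.22, adjusted p = 0.00563), and was the 1 mitochondrial gene past 2-fold. Tars2 (0.75) and Sars2 (0.67) were higher as well. Iars2 averaged 684 ± 46.8 in resistant and 1195 ± 169 in sensitive tumours, -0.80 (SE 0.14, adjusted p = 0.0033). Pars2, the prolyl enzyme, at -0.74 and Rars2, the arginyl enzyme, at -0.69 were the others that fell. In the pairs for 1 amino acid, the cytosolic change exceeded the mitochondrial one in 14 of 16 without sensitive tumour 4, with a median difference of 0.63, and in 13 of 16 with all 8 tumours, with a median difference of 0.34. The cytosolic to mitochondrial ratio was higher in resistant tumours with no overlap in 9 pairs without sensitive tumour 4 and in 0 pairs with it. It was lower with no overlap in 1 pair either way, Tars with Tars2, at a difference of -0.60 without sensitive tumour 4 and of -0.80 with it. How often the ratios of other gene pairs separate the tumours was not counted.

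**Figure D5:**
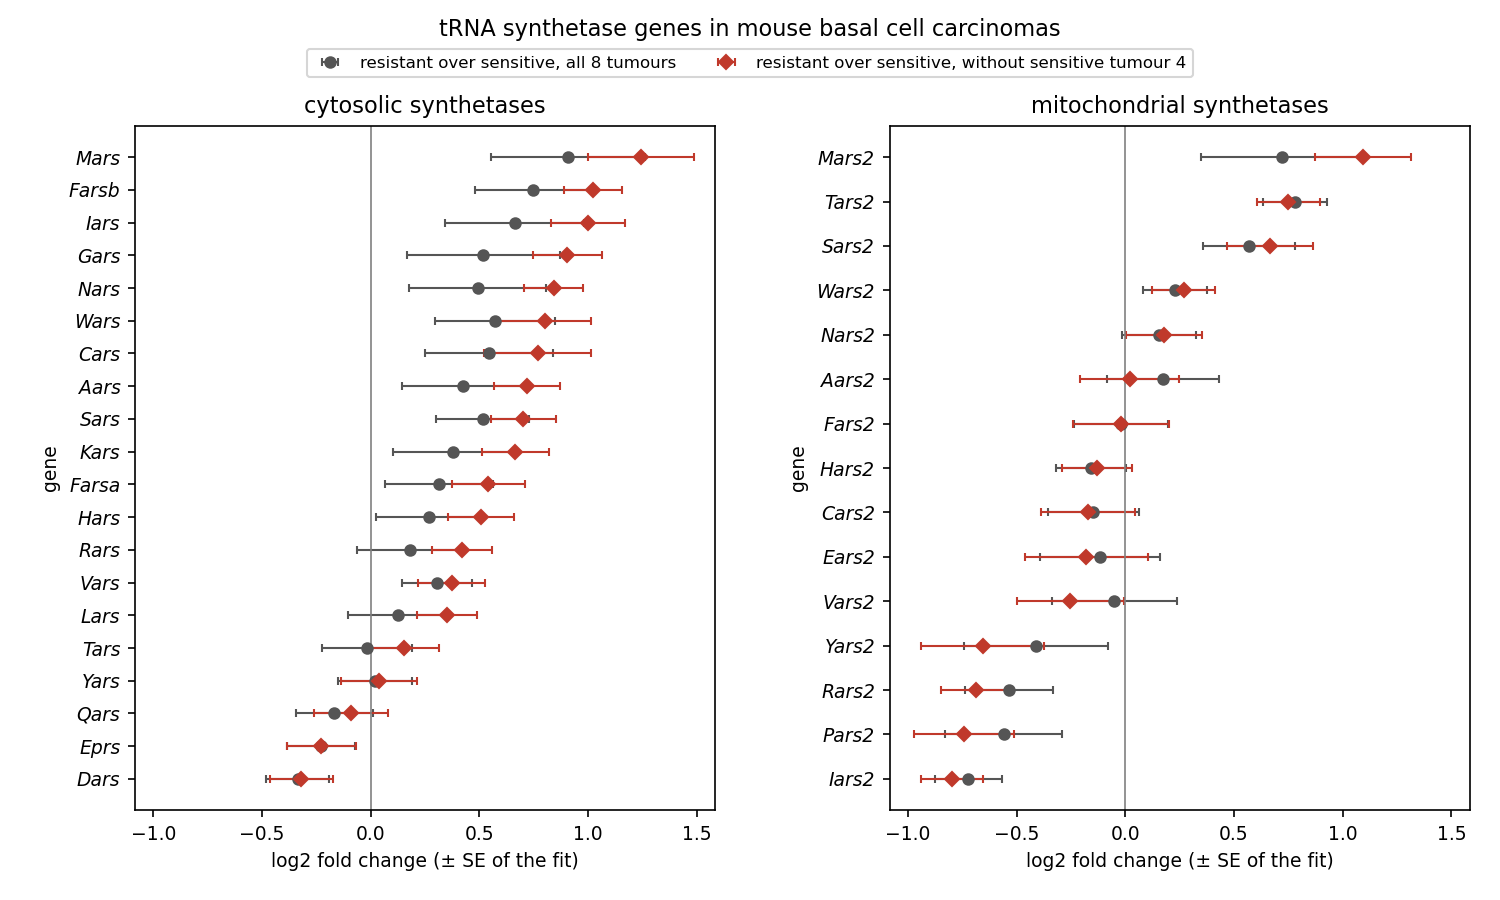
Log2 fold change in resistant over sensitive tumours of each synthetase gene (x axis, bars are the SE of the fit) with all 8 tumours (circles) and without sensitive tumour 4 (diamonds), cytosolic genes left and mitochondrial genes right. The cytosolic median is 0.35 with all tumours and 0.60 without sensitive tumour 4, and the mitochondrial genes lie on both sides of 0 in either fit.

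The related gene lists gave 0 passing genes with all 8 tumours, with Trib3 at 2.01, Atf4 at 0.85, Asns at 0.82, Ddit3 at 0.61, Aimp2 at 0.67, Eef1e1 at 0.67 and Aimp1 at 0.05 on the log2 scale. Without sensitive tumour 4, 20.6% of all genes were higher in resistant tumours and 19.4% lower, and the counts by list are to be read beside those shares. Of 12 integrated stress response genes, 7 were then higher and 0 lower, with a median of 1.10, against 0.77 with all 8 tumours. Atf4 had 3329, 2507, 3268 and 2029 normalized counts in resistant tumours and 1244, 1109, 1517 and 2517 in sensitive tumours, a log2 fold change of 1.09 without sensitive tumour 4 (SE 0.21, adjusted p = 0.00402). Sensitive tumour 4 lay within the resistant range. Vldlr, the very low density lipoprotein receptor, changed by 1.84, Eif4ebp1, a brake on translation initiation, by 1.76, Trib3 by 2.63 and Asns by 1.23, and Ddit3, at 0.80, did not pass. Of the serine and one-carbon enzymes 5 of 9 were higher, including Mthfd2 (2.61), Mthfd1l (2.16) and Shmt2 (2.09). The scaffold genes Aimp2 (1.02) and Eef1e1 (0.87) rose and Aimp1 (0.20) did not pass. Of the elongation factors, Eef1b2 (1.06), Eef1g (0.80) and Eef1a1 (0.58) rose. Of 10 amino acid transporters 5 rose and 2 fell, among them Slc7a11 (2.31), Slc7a1 (1.43) and Slc6a9 (-1.91). Of the other aminoacylation genes 0 rose and 1 fell, Gatc (-0.49), a partner of Qrsl1. Of the 9 mitochondrial translation factors Tsfm (0.76) and Gfm1 (0.40) rose and Mtrf1l (-0.77) fell. Of the 14 polymerase III genes Polr3d (0.69) rose and Brf1 (-0.79) and Maf1 (-0.61) fell, and 0 of 4 eIF2 kinases passed. The shares of mitochondrial translation factors and of polymerase III genes were near or below those of all genes.

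The order of the genes differed between the cell and tumour comparisons. These genes were picked after their values were seen, and the difference was not tested across the separately normalized tables. Vars changed by 1.73 with CCG-1423 over vehicle and by 0.37 in resistant over sensitive tumours without sensitive tumour 4. Yars changed by 1.48 in the cells and by 0.04 in the tumours, and Eprs by 1.08 in the cells and by -0.23 in the tumours. Mars changed by 0.56 in the cells and by 1.24 in the tumours, again without sensitive tumour 4. Mars2 was lower with CCG-1423 (-1.18) and, only without sensitive tumour 4, passed as higher in resistant tumours (1.09). With all tumours the Mars2 change was 0.72 and did not pass. Sensitive tumour 4, at 239 normalized counts of Mars2, lay above every resistant tumour (148 to 228).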

How the data were processed

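RNA libraries of 8 tumours and 9 ASZ001 samples were analysed, and the 8 exome samples, 4 of each tumour kind, were not analysed here. Both deposited tables hold signal values, which are gene read counts after the authors' division by a size factor for each library, set separately in each table. Whole reads were recovered for 100% of values within a tolerance of 0.01 read. Per the submitters' processing notes, TopHat, DESeq and mm9 were used, without roles or versions. The sources used here do not give the counter, the annotation or strandedness.

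Genes at 10 or more in at least 4 tumour or 3 cell libraries were tested in R 4.3.3 with limma 3.58.1 and a variance trend, taking log2 of the normalized count plus a pseudocount of 1, a scale that understates the change of low genes. The 9 cell libraries shared 1 fit. P-values are 2-sided, adjusted by Benjamini-Hochberg over the genes tested, with a threshold of 0.05. A stricter call added a change of at least 2-fold. The test was run on simulated data with known fold changes, and the outcome is not reported here. Those data held no library that stood apart as sensitive tumour 4 did, so they do not cover that case. Alternatives were other pseudocounts, filters and scalings, edgeR 4.0.16, DESeq2 1.42.0, a replicate block and leaving out each library. Replicates were compared by chi-square of their reads (1.84 to 40.9 per degree of freedom in the cells, 13.5 to 183 in the tumours), so none was a repeat deposit. Same-numbered libraries did not deviate together, so the numbers were not used as pairs. As the origin of replicates is not stated, p-values reflect no more than the spread among these libraries, possibly technical.

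Members and lists were chosen with earlier results of these data known. Named were the 6 cytosolic and 4 mitochondrial members of largest change among those passing (where fewer than 3 passed, the 3 of smallest p), members passing against their class's median by 1.5-fold, up to 3 passing genes per list, and Atf4, Ddit3, Trib3, Asns, Aimp1, Aimp2 and Eef1e1. Any other gene is named to complete a count and was chosen after its values were seen. Gatb was not found under that symbol, and 1 listed gene is not reported here.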

Additional observations from a re-analysis of the deposited data

Results flagged for a closer look

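In 7 of the groups of 4 tumours, taken gene by gene over the 35 members, the highest tumour stood apart from the other 3 on the log2 scale. The rule was applied to 35 genes in each of the sensitive and resistant groups. Chance alone flags about 1 in 20 such groups when they are independent, and genes of the same tumours are not. The number flagged was therefore not weighed against chance. In 6 of the 35 genes the tumour was sensitive tumour 4, and all 6 were cytosolic. It had 2800 normalized counts of Aars, against 1142 to 1321 in sensitive tumours 1 to 3. For Iars the values were 2911 in sensitive tumour 4 and 1134 to 1153 in the others of its group, for Lars 2461 and 1245 to 1361, for Mars 1470 and 527 to 626, for Nars 6634 and 2368 to 2665, and for Rars 2332 and 1184 to 1194. The gene flagged in the resistant group was Qars, with 623 normalized counts in resistant tumour 4 and 489 to 505 in resistant tumours 1 to 3.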

How the results depend on the processing

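In the CCG-1423 comparisons every count of passing members and of all genes was within 1.5 times its reported value under each alternative run, and 170 of 170 fold changes of named members against vehicle, and 170 of 170 against vismodegib, kept their direction and their side of the threshold. None of the named fold changes reversed in any comparison. In the tumours 100 of 108 kept their side and 8 came to pass, as did 8 of 102 with vismodegib. In the tumours 17 genes passed over all genes. This count became 0 with a pseudocount of 0.5, with a mean of at least 50 and with equal totals. It was also 0 with a robust variance trend, with edgeR and with the replicate block. With DESeq2 it became 1638 of 15076 genes, and 2 of 35 members passed, both mitochondrial. Leaving out 1 tumour gave 0 to 6184 genes, 0 to 13 cytosolic members (0 to 2 at 2-fold) and 0 to 6 mitochondrial members (0 to 1 at 2-fold), and each highest value came without sensitive tumour 4. Equal totals moved the tumours' median of all genes to -0.08, against 0.03, with cytosolic and mitochondrial medians of 0.24 and -0.16. For vismodegib, equal totals gave 17 cytosolic and 3 mitochondrial members and 3229 genes over all genes. The fit of only the 2 groups compared gave 7 cytosolic members and 1721 genes. These gene counts cover either direction, and 12775 genes were tested in the reported fit. Leaving out 1 library gave 325 to 498 genes, against 703, and 0 to 1 cytosolic members, the highest without vehicle replicate 1. edgeR on the recovered reads called 10938 genes for CCG-1423 against vehicle, 10873 against vismodegib and 739 for vismodegib against vehicle. The cause was not tested for these changes. Same-numbered libraries correlated in their deviations at -0.04 to 0.04 in the cells and -0.15 to 0.12 in the tumours, and 1 of 9 cell and 3 of 8 tumour libraries correlated best with their own number. The replicate block changed no call of a member and gave 10848 genes for CCG-1423 and 606 for vismodegib over vehicle. With 50 reads at the lowest, counting error limits the lowest mitochondrial genes in the tumours most.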
